A study of Drosophila melanogaster with 36 samples.

Results

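Glial cells of the fly head clear and recycle transmitters, seal the brain against the blood and support photoreceptors, and 6 genes stand here for those tasks. They are repo, moody, Gs2, Eaat1, nrv2 and dmGlut, and their probe sets were found by gene symbol in the platform annotation. That annotation lists 5 of them, with 1 probe set each, among the 11982 genes that have a probe set of their own. Eaat1, the glial high-affinity glutamate importer, was not analysed here, so glutamate handling is represented by Gs2 and dmGlut.

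As background, fly glia share the transcription factor Repo, and most of what distinguishes a glial cell from a neuron depends on it. Glutamate released by neurons is taken up by glia, turned into glutamine by glutamine synthetase and passed back. Subperineurial glia seal the blood-brain barrier with septate junctions, and Moody, a G protein-coupled receptor of those cells, is needed for the seal. Nervana 2, encoded by nrv2, is a beta subunit of the Na+/K+ pump that is abundant in glia and also belongs to septate junctions. dmGlut is named as a dietary and metabolic glutamate transporter, and its cell type in these heads was not measured.

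RNA of 20 heads per sample was hybridised to 36 one-colour Affymetrix arrays, 3 for each of 4 genotypes at days 0, 2 and 14. Flies developed at 18 °C, were collected within 48 h of eclosion, and were sampled then (day 0) or after 2 or 14 days at 29 °C. For changes from day 0, age and the move from 18 °C to 29 °C therefore cannot be told apart. All genotypes carried the eye driver GMR-Gal4 with a temperature-sensitive Gal80 that blocks it in the cold. Control had nothing else, while the line Atro added a wild-type Atrophin transgene and the lines A66QC and A75QN added Atrophin with an expanded polyglutamine (polyQ) stretch. GMR drives expression in the developing and adult eye, so a whole-head sample holds the driver's cells beside brain, fat body and cuticle. Expression values are log2 of the authors' deposited scale, and a difference of 1 is a doubling. Group means below carry the SD of 3 arrays. Every adjusted p is limma's, adjusted by Benjamini-Hochberg over the 18769 probe sets of one comparison. A difference with an adjusted p under 0.05 is called higher or lower.

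Array medians lay between 6.34 and 6.40, and replicate arrays correlated at 0.9952 or more across probe sets, which are not independent of each other. Whether the 3 samples of a group were raised as separate cultures is not in the labels, and the p-values therefore measure the spread between these samples only. On 6 arrays, 1 in each of 6 groups, the spread of all values lay 5% or more off its group's median. Bacterial poly-A spike-in probe sets ran from 13.1 to 13.4 on A75QN's 6 arrays of the later days, against 10.2 to 10.9 on the other 30. Gug, the gene of Atrophin, was called higher in no line, and it was called lower in A66QC at day 0 (-0.40, adjusted p = 0.015) and day 14 (-0.31, adjusted p = 0.0493) and in A75QN at day 0 (-0.35, adjusted p = 0.048). That probe set thus gives no check of the transgene labels, and whether its probes match the transgene was not tested.

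Between days 0 and 14 dmGlut rose in Control and Atro heads, while in the polyQ lines the same difference was 0.01 in A66QC and 0.16 in A75QN, neither called. In Control its mean went from 7.56 ± 0.13 at day 0 through 8.17 ± 0.095 at day 2 to 9.90 ± 0.094 at day 14, a 5.07-fold rise over the whole period (2.34, SE 0.070, adjusted p = 3.5e-22). At day 14 it was 4.75-fold lower in A66QC than in Control and 3.75-fold lower in A75QN. moody rose in all 4 genotypes between days 0 and 2, and it fell between days 2 and 14 in both polyQ lines. Gs2 and nrv2 were lower at day 14 than at day 0 in every genotype, and at day 14 Gs2 was lower in both polyQ lines than in Control. repo passed the threshold in none of its 39 differences.

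**Figure D1:**
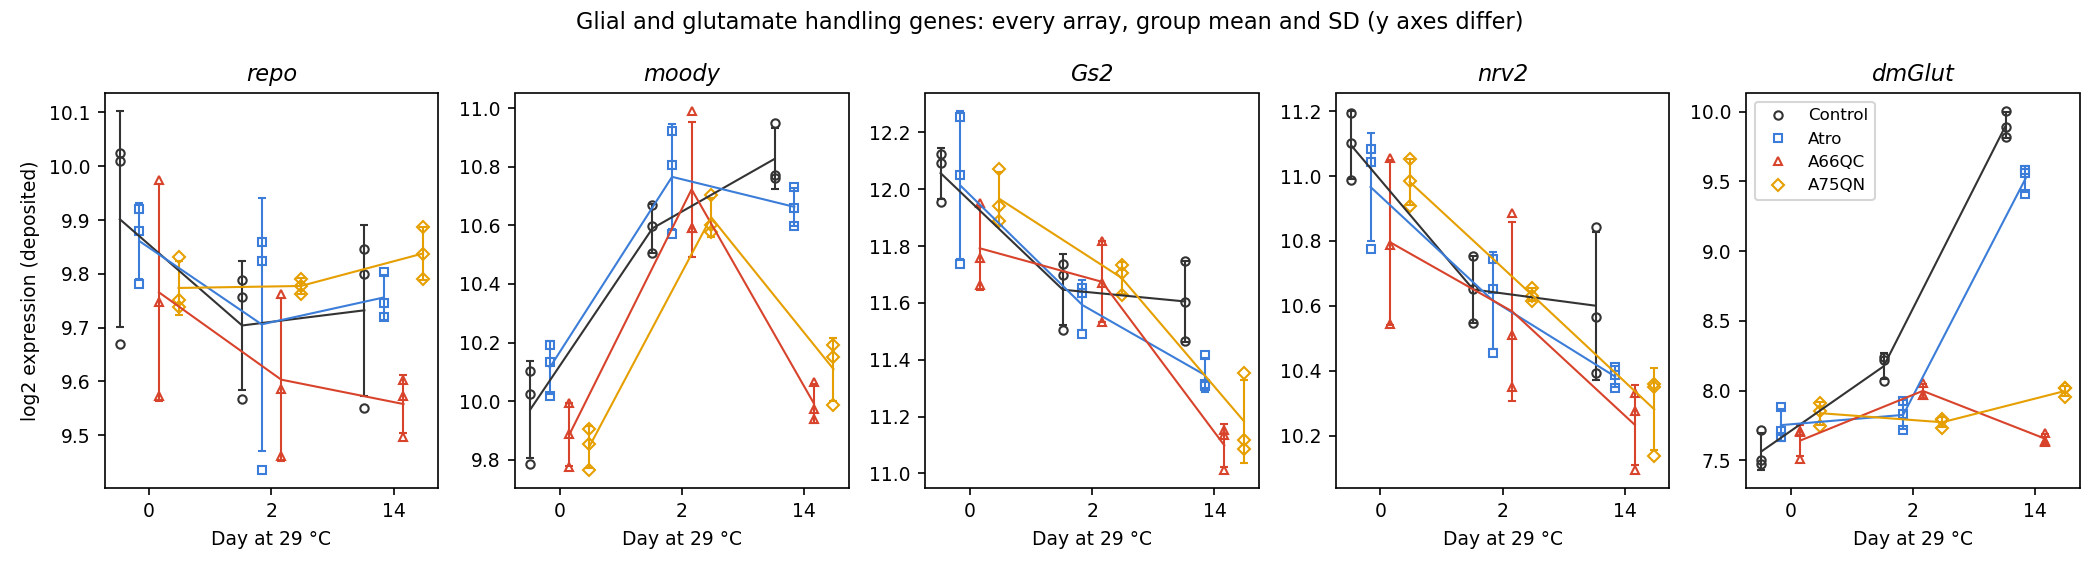
Deposited log2 values of the 5 measured genes on every array, by day at 29 °C (days equally spaced, y axes differ); lines join group means and bars are SD of 3 arrays. dmGlut climbs to 9.90 in Control and 9.52 in Atro at day 14 while both polyQ lines stay near 8. moody peaks at day 2 in the polyQ lines, and its Atro mean is also highest at day 2 (10.77 against 10.66 at day 14).

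Among the transporters, the individual dmGlut arrays separated fully at day 14. The 3 Control arrays read 9.82, 10.00 and 9.89. Those of Atro read 9.58, 9.41 and 9.56, all under Control. The A66QC arrays read 7.69, 7.63 and 7.64, and the A75QN arrays 7.95, 8.02 and 8.02. Thus the highest array of a polyQ line lay below the lowest array of Atro, and the polyQ lines did not overlap each other either. Against Control, the difference in dmGlut was -2.25 in A66QC (SE 0.070, adjusted p = 1.3e-21), -1.91 in A75QN (adjusted p = 1.1e-19) and -0.38 in Atro (adjusted p = 0.00043). Against Atro, dmGlut was lower by -1.87 in A66QC (adjusted p = 2.3e-18) and by -1.52 in A75QN (adjusted p = 2.0e-16). A66QC lay under A75QN by -0.34 (adjusted p = 0.0014).

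Differences in dmGlut were small before the last day. At day 0 the Control arrays read 7.47, 7.50 and 7.72 and the A75QN arrays 7.75, 7.91 and 7.86, which left A75QN higher by 0.27 (adjusted p = 0.014). The call in A75QN was lost when Control replicate 1 or 2 or A75QN replicate 2 of day 0 was left out and when those 6 arrays were fitted alone, with adjusted p up to 0.093. The direction had turned by day 2, when Control read 8.22, 8.07 and 8.24, Atro 7.93, 7.72 and 7.83, and A75QN 7.79, 7.80 and 7.73. Atro was then lower by -0.35 (adjusted p = 0.0019) and A75QN by -0.40 (adjusted p = 0.00028), and neither group overlapped Control. The A66QC arrays read 7.97, 7.97 and 8.06, under Control without passing the threshold (-0.18, adjusted p = 0.22). In the order of all 12 dmGlut group means, Control and Atro at day 14 and Control at day 2 stood apart from their neighbours, as did A75QN at day 14 from the groups below it. The 7 lowest groups, from A75QN at day 0 down to Control at day 0, overlapped from one to the next.

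Over time, dmGlut rose in Control by 0.61 from day 0 to day 2 (adjusted p = 5.4e-08) and by 1.73 from day 2 to day 14 (adjusted p = 4.1e-18). Atro showed 0.07 over the first interval, without a call, and a rise of 1.69 over the second (adjusted p = 3.4e-18). In A66QC dmGlut rose by 0.36 up to day 2 (adjusted p = 0.00033) and fell by 0.34 after it (adjusted p = 0.00057), so day 14 stood 0.01 from day 0. A75QN changed by -0.07 and then rose by 0.22, a rise that lost its call when any of 5 of the 6 arrays was left out, at adjusted p up to 0.104. The day 2 to day 14 change in dmGlut was smaller than Control's by 2.07 in A66QC and by 1.51 in A75QN when the changes themselves were compared, and Atro's differed by -0.04 (SE 0.099, 95% interval -0.24 to 0.17). Among markers of 7 cell types, chosen by name, some moved between days too. In Control between days 0 and 2, all 8 muscle markers and all 4 tracheal markers were called lower, with medians of -1.14 and -1.46. Of all probe sets, 11.5% were called lower, and 1 of the tracheal markers was near background on both days. Near background here means a mean under 6.40, the highest array median, and background itself was not measured. The mean of 17 glial markers went from 8.64 to 8.37. Mean levels of the neuron, photoreceptor, fat body and haemocyte markers overlapped between the arrays of those days. In a whole-head sample, fewer cells of a type and less RNA per cell cannot be told apart.

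The head samples also hold fat body. Of 8 measured fat body genes at day 14, only Lsp2, a storage protein, was called in Atro (2.03, adjusted p = 0.012) and in A66QC (1.74, adjusted p = 0.014), both higher than Control, although under cyclic loess 4 of the 8 genes were called higher in A66QC. In A75QN only Yp3, a yolk protein, was called, and it was lower (-0.40, adjusted p = 0.023). Of all probe sets, 1.86% in Atro and 4.17% in A66QC were called higher that day, and 9.8% in A75QN were called lower. The mean level of the 8 genes, 2 of them near background, ran from 10.67 to 10.98 over the Control arrays of day 14. It ran from 10.89 to 11.17 over those of Atro, from 11.02 to 11.06 over those of A66QC and from 10.53 to 10.69 over those of A75QN. Lsp2 carried most of the higher mean in A66QC, where the median difference of the 8 genes was 0.04. In A75QN that median was -0.18, in the same direction as dmGlut, but -0.09 under quantile and -0.02 under cyclic loess normalization. Under cyclic loess 0 of the 8 genes were called in A75QN. The part of fat body in the dmGlut difference was not tested.

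moody, the barrier receptor, separated the polyQ lines from Control at day 14 only. The Control arrays then read 10.76, 10.95 and 10.77 and the Atro arrays 10.73, 10.60 and 10.66. A66QC read 10.07, 9.94 and 9.97, and A75QN 10.15, 9.99 and 10.19. No array of a polyQ line reached the lowest Atro array. moody was 1.78-fold lower than Control in A66QC (-0.84, SE 0.093, adjusted p = 5.5e-08) and 1.64-fold lower in A75QN (-0.72, adjusted p = 1.0e-06), against -0.16 in Atro (adjusted p = 0.48). Measured against Atro, the differences in moody were -0.67 in A66QC (adjusted p = 7.0e-06) and -0.55 in A75QN (adjusted p = 9.8e-05).

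Before that, moody had risen in every genotype. Its day 2 minus day 0 change was 0.62 in Control (adjusted p = 5.7e-06), 0.65 in Atro (adjusted p = 3.9e-06), 0.84 in A66QC (adjusted p = 4.3e-08) and 0.79 in A75QN (adjusted p = 1.1e-07). At day 2 the 12 arrays ran from 10.50 in Control to 10.99 in A66QC with the groups overlapping. From day 2 to day 14 moody changed by 0.24 in Control and by -0.10 in Atro, neither called, while it fell by 0.73 in A66QC (adjusted p = 5.4e-07) and by 0.52 in A75QN (adjusted p = 0.00012). The Atro change of moody ranged from -0.20 to -0.02 over the alternatives. It was called lower in 4 of 14 of them, quantile and cyclic loess normalization included. Compared with Control's change, the later change of moody was -0.97 in A66QC and -0.76 in A75QN. Its 12 group means fell into an upper set of 6, ending with Control at day 2, and a lower set of 6, beginning with Atro at day 0, with no overlap of arrays at that step. Within each set, neighbouring groups overlapped. Day 14 of both polyQ lines lay in the lower set, among the day 0 groups. In A75QN moody at day 14 was still called above day 0 (0.27, adjusted p = 0.026), a call lost when any of 4 single arrays was left out.

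Gs2, the glutamine synthetase that is abundant in glia, had the highest values on its probe set in newly eclosed flies. Control read 11.95, 12.12 and 12.09 at day 0 and 11.60, 11.75 and 11.47 at day 14, a fall of 0.45 (SE 0.098, adjusted p = 0.00045). The falls over the same period were 0.67 in Atro (adjusted p = 2.1e-06), 0.69 in A66QC (adjusted p = 1.3e-06) and 0.78 in A75QN (adjusted p = 1.2e-07). Control fell by 0.41 before day 2 and changed by -0.04 after it, and Atro fell by 0.42 and then changed by -0.25 without a call. The later change of Gs2 was called lower in Control under quantile and cyclic loess normalization, and in Atro in 5 of 14 alternatives. A66QC changed by -0.12 before day 2 and fell by 0.57 after it (adjusted p = 6.0e-05). A75QN fell by 0.28 and then by 0.50 (adjusted p = 0.043 and 0.00035), and the first of these lost its call without any of 5 of its 6 arrays. Compared with Control's change, only the later change of Gs2 in A66QC was called (-0.53, adjusted p = 0.026), and that call was lost in 7 of 20 alternatives.

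At day 14 the Gs2 arrays of A66QC read 11.01, 11.13 and 11.15 and those of A75QN 11.35, 11.08 and 11.12, all below every Control array. The Atro arrays read 11.42, 11.31 and 11.32, also below Control, and overlapped A75QN. The difference from Control was -0.51 in A66QC (1.42-fold lower, SE 0.098, adjusted p = 0.00044) and -0.42 in A75QN (adjusted p = 0.0035), and in Atro it was -0.26 without a call (adjusted p = 0.17). Under quantile normalization Gs2 differed from Control by -0.32 in A66QC and by -0.20 in A75QN, each still called. Neither polyQ line differed from Atro at the threshold.

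nrv2, the pump subunit, declined much as Gs2 did. Control read 10.99, 11.19 and 11.10 at day 0 and 10.39, 10.84 and 10.56 at day 14, a fall of 0.49 (SE 0.118, adjusted p = 0.0012). The fall over 14 days was 0.58 in Atro (adjusted p = 0.00020), 0.56 in A66QC (adjusted p = 0.00036) and 0.70 in A75QN (adjusted p = 1.6e-05). At day 14 the nrv2 arrays of A66QC read 10.33, 10.09 and 10.28, under the lowest Control array by a small margin, and the difference of -0.37 was called at adjusted p = 0.030. That call was lost under quantile and cyclic loess normalization (adjusted p up to 0.259 over the alternatives), without the arrays of outlying spread, and without Control replicate 2 or 3 or A66QC replicate 2 of that day. A75QN read 10.35, 10.14 and 10.36 and did not pass (-0.32, adjusted p = 0.063). No array group of nrv2 stood clear of its neighbour in the order of the 12 means, from 11.10 in Control at day 0 to 10.23 in A66QC at day 14.

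repo, the marker shared by nearly all glia, varied least. Its group means lay between 9.56 ± 0.054 in A66QC at day 14 and 9.90 ± 0.20 in Control at day 0, a range of 0.34. At day 14 the repo arrays read 9.55, 9.85 and 9.80 in Control and 9.80, 9.72 and 9.75 in Atro. Those of A66QC read 9.60, 9.50 and 9.57, and those of A75QN 9.89, 9.79 and 9.84. Each line overlapped Control. The differences of repo from Control at day 14 were 0.02 in Atro (95% interval -0.18 to 0.23), -0.17 in A66QC (-0.38 to 0.03) and 0.11 in A75QN (-0.10 to 0.31). Under quantile normalization repo in A75QN was called higher by 0.29 at day 14 (adjusted p = 7.7e-05), and 18 of the 39 repo differences were called under at least 1 alternative. The intervals allow a decrease of up to 0.38 in A66QC, so they do not show that repo was level.

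**Figure D2:**
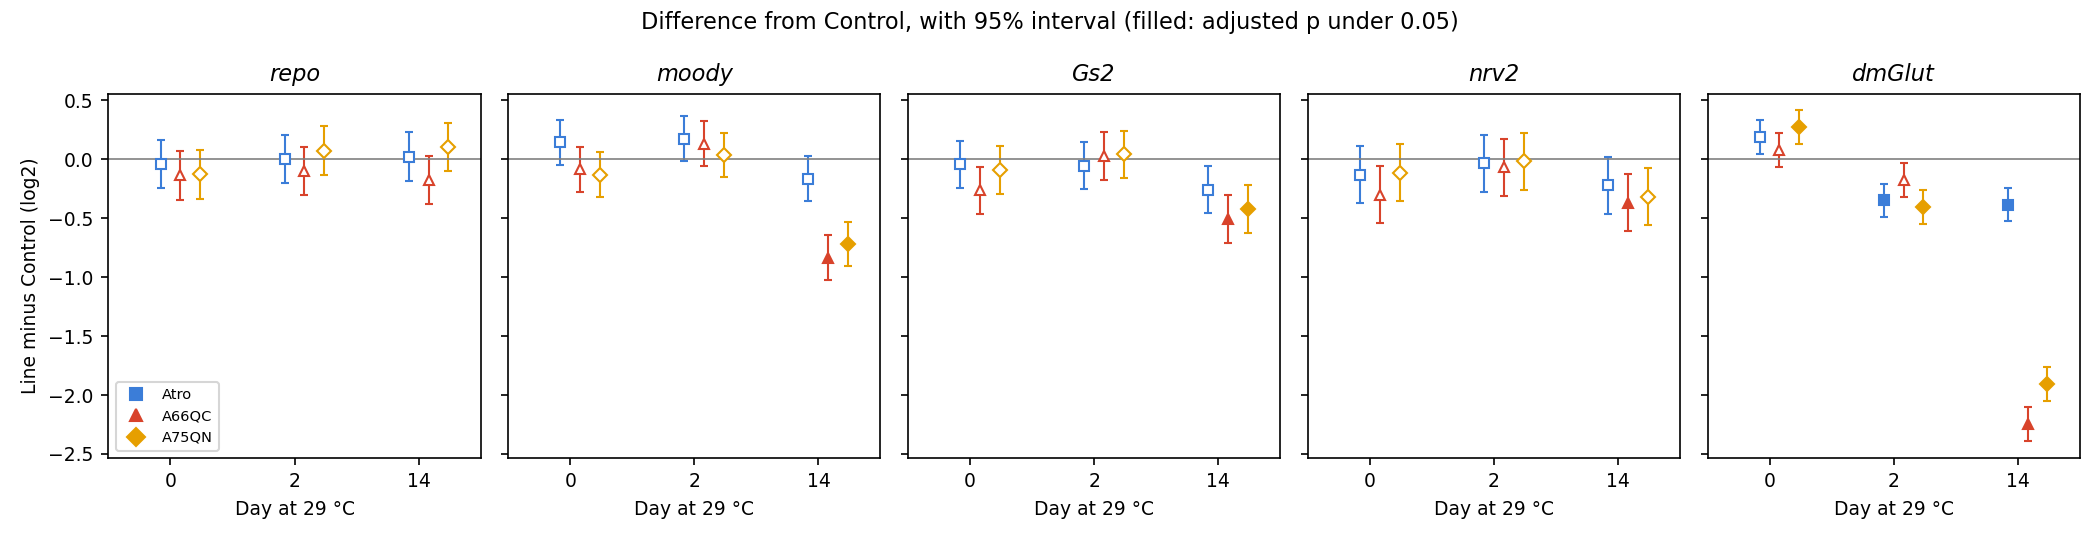
Difference of each line from Control on the log2 scale by day, with the 95% interval of the fit; filled symbols have an adjusted p under 0.05. Of 45 differences, 11 are filled, 10 of them lower, and 7 of those at day 14 belong to the polyQ lines.

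Counted over the 5 genes, 4 were called lower than Control in A66QC at day 14, where 17.9% of all probe sets were called and 13.8% called lower. In A75QN 3 were called lower, against 15.6% of all probe sets called and 9.8% called lower. Atro had 1 of 5 lower at day 14, where 4.18% of probe sets were called and 2.32% called lower. At day 2 the counts were 1 lower in Atro (3.63% of all probe sets, 2.01% lower), 0 in A66QC (3.44%) and 1 lower in A75QN (4.68%, 3.02% lower). At day 0 they were 0 in Atro (4.37%), 0 in A66QC (10.9%) and 1 higher in A75QN (7.04%, 1.97% higher). The 3 lines were compared with the same Control arrays, so these counts are not independent.

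Set against Atro, which carries the wild-type transgene, 2 of 5 genes were called lower at day 14 in A66QC, where 5.86% of probe sets were called and 5.16% called lower, and 2 of 5 in A75QN, where 9.29% were called and 6.53% called lower. These were moody and dmGlut in each line. None was called at day 0 (9.36% and 11.3% of probe sets) or day 2 (0.517% and 2.12%). Between the polyQ lines, dmGlut at day 14 was the 1 call of 5, lower in A66QC (8.18% of probe sets, 4.66% lower), and none was called at day 0 (6.01%) or day 2 (2.88%). At day 14 the arrays of the polyQ lines did not overlap in repo either, and the difference of repo, -0.28 without a call as deposited (adjusted p = 0.085), was called under 5 of 14 alternatives.

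Between days 0 and 14, 4 of 5 genes were called in Control, where 31.5% of all probe sets were, and 4 of 5 in Atro (29.5%). In A66QC 2 of 5 were called, both lower (27.2% of probe sets, 11.7% lower), and in A75QN 3 of 5 (31.3%). From day 0 to day 2 the counts were 4 in Control (22.2%), 3 in Atro (15.7%), 2 in A66QC, both higher (18.1%, 11.2% higher), and 3 in A75QN (19.7%). From day 2 to day 14 Control (13.5%) and Atro (19.9%) had 1 each, and A66QC (15.1%) and A75QN (16.1%) had 4 each, as deposited. Under quantile and cyclic loess normalization, later falls of Gs2 and nrv2 were also called in Control, and those of moody, Gs2 and nrv2 in Atro. Quantile normalization called 15.8% of all probe sets in Control over those days and 25.8% in Atro. The later fall of nrv2 was lost in 8 of 14 alternatives in A66QC and without any single array in A75QN, and leaving out any day 2 array of A75QN took its count from 4 to 2. In Control and Atro that single later call was the rise of dmGlut, in a direction taken by 10.3% and 13.1% of all probe sets. In A66QC all 4 were falls, where 8.19% of probe sets were called lower, and in A75QN 3 of 4 were. Differences between the changes of a line and of Control were called in 12 of 45 tests, 7 of them for dmGlut, 4 for moody, 1 for Gs2 and none for nrv2 or repo. For the day 2 to day 14 change, 3 of 5 genes were called in A66QC (3.12% of all probe sets, 2.38% lower), 2 in A75QN (2.86%, 2.13% lower) and 0 in Atro (1.41%). The corresponding counts for day 0 to day 14 were 2 in A66QC (2.29%, 1.78% lower), 2 in A75QN (3.09%, 2.33% lower) and 1 in Atro (2.11%, 1.44% lower). For day 0 to day 2 they were 0 in A66QC (1.32%), 1 in A75QN (2.04%, 1.06% lower) and 1 in Atro (1.35%, 1.05% lower). All 12 were in the lower direction.

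The scaling of the arrays bears on the smaller differences. As deposited, A66QC at day 14 had 783 probe sets called higher than Control and 2582 called lower, which became 1457 and 1309 under quantile normalization and 1362 and 1446 under cyclic loess. In A75QN the split of 1088 higher and 1839 lower became 1372 and 1165, and 1265 and 1263. The day 14 calls of dmGlut, moody and Gs2 in both polyQ lines kept their direction and their call under every alternative tried. Over those alternatives dmGlut ranged from -2.29 to -2.09 in A66QC and from -1.95 to -1.78 in A75QN, and moody from -0.87 to -0.65 and from -0.76 to -0.53.

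**Figure D3:**
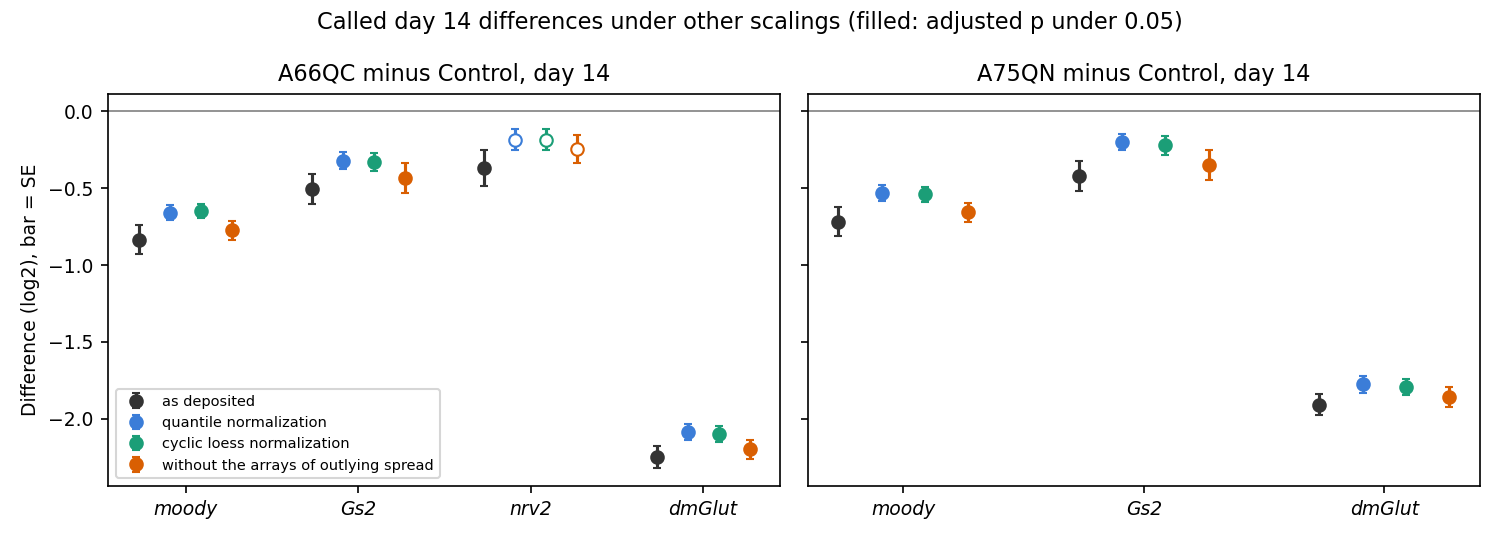
Day 14 differences of the polyQ lines from Control (log2, bars are SE) as deposited, under quantile and cyclic loess normalization, and without the arrays of outlying spread. Filled symbols have an adjusted p under 0.05. dmGlut moves little, Gs2 shrinks from -0.51 to -0.32 in A66QC, and nrv2 in A66QC loses its call in all 3 alternatives.

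RNA quality was read from the 3′ minus 5′ signal of the GAPDH control probe sets, which grows as RNA is shorter. At day 0 Control averaged 1.51 ± 0.22 and Atro 1.56 ± 0.26, while A66QC averaged 1.63 ± 0.099 and A75QN 1.57 ± 0.073. At day 14 Control averaged 1.81 ± 0.071 and Atro 2.10 ± 0.077, while A66QC averaged 2.16 ± 0.033 and A75QN 1.99 ± 0.15. At day 2 Control averaged 1.82 ± 0.056 and Atro 1.84 ± 0.10, while A66QC averaged 1.89 ± 0.14 and A75QN 1.76 ± 0.087. The mean was thus higher at day 14 than at day 0 in every genotype, and highest in A66QC. From day 2 to day 14 it rose in Atro, A66QC and A75QN but not in Control. The part of RNA quality in the changes of the 5 genes, and in their differences from Control, was not tested.

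Of 24 other genes listed that make, move or sense glutamate, 22 were measured, 5 of them near background in 10 or more groups, and at day 14 against Control 0 were called in Atro, 8 were lower in A66QC and 4 were lower in A75QN, with none higher. Their median differences were -0.11, -0.17 and -0.11, against medians of -0.00 to 0.02 over all probe sets and of -0.04, -0.12 and -0.09 over the brighter ones, and under quantile normalization they became -0.08, -0.07 and 0.00. Of all probe sets, 2.32% were called lower in Atro, 13.8% in A66QC and 9.8% in A75QN. CG9674, a predicted glutamate synthase, was lower by -0.63 in A66QC (SE 0.086, adjusted p = 2.7e-06) and by -0.48 in A75QN (adjusted p = 0.00017). At day 2 CG9674 had been higher than Control by 0.45 in A75QN (adjusted p = 0.00093) and by 0.35 in Atro (adjusted p = 0.014), the opposite sign.

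For 3 other named glutamate genes the polyQ lines differed from each other at day 14, by 0.23 for Got2, -0.30 for slgA and -0.20 for GluRIA as A66QC minus A75QN (adjusted p = 0.039, 0.041 and 0.027). The mitochondrial aspartate aminotransferase gene Got2 was lower by -0.32 in A75QN (adjusted p = 0.0022) and showed -0.09 in A66QC. Proline dehydrogenase, slgA, was lower by -0.39 in A66QC (adjusted p = 0.0045) and showed -0.08 in A75QN, a sign that turned to 0.13 under quantile normalization. GluRIA, an ionotropic glutamate receptor subunit, was lower by -0.19 in A66QC (adjusted p = 0.021). In Control, 12 of the 22 genes were called lower and 2 higher at day 14 than at day 0, against 12.1% of all probe sets lower and 19.3% higher. Those falls included Gat, the glial GABA transporter (-1.33, adjusted p = 2.9e-09), Gad1, which makes GABA from glutamate (-0.82, adjusted p = 2.7e-07), and gb, a glial cystine and glutamate exchanger (-0.71, adjusted p = 6.0e-10). dmGlut went the other way over the same days.

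The pump genes beside nrv2 were 3 of 6 listed. nrv1, its close relative and genomic neighbour, was lower at day 14 by -0.45 in A66QC (adjusted p = 0.0083) and by -0.40 in A75QN (adjusted p = 0.021), and under quantile normalization the nrv1 call remained in A66QC (-0.26) and not in A75QN (-0.19, adjusted p = 0.068). nrv3, the neuronal beta subunit, fell in Control by 0.49 between days 0 and 14 (adjusted p = 7.9e-05), whereas nrv1 changed by 0.05. The nrv2 probe set carries a suffix that marks probes shared by more than 1 transcript, and whether it also reads its relatives was not tested.

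Of 10 further genes of the Moody pathway and the blood-brain barrier, 6 were measured. At day 14, 0 were called in Atro, 2 were lower in A66QC, and in A75QN 1 was higher and 1 lower, with medians of 0.12, -0.18 and -0.04. Under quantile normalization 2 were higher and 1 lower in A66QC, 2 were higher in A75QN and 3 in Atro. As deposited, 13.8% of all probe sets were called lower in A66QC, and in A75QN 9.8% were called lower and 5.8% higher. Galphao, a G protein alpha subunit that acts under Moody, was lower in A66QC by -0.56 (adjusted p = 0.00016), and so was Galphai (-0.24, adjusted p = 0.036). Mdr65, the barrier's drug efflux pump, was higher in A75QN by 0.35 (adjusted p = 0.019). Tret1-1, a trehalose transporter of the barrier, was higher at day 2 in Atro by 0.51 (adjusted p = 0.0033) and in A75QN by 0.46 (adjusted p = 0.0078). Indy, a citrate transporter, was lower in A75QN at day 14 by -0.33 (adjusted p = 0.019). In Control between days 0 and 14, Mdr65 fell by 0.82 (adjusted p = 1.0e-07) while Galphai rose by 0.30 (adjusted p = 0.0032), so the receptor's rise was not shared by these partners in one direction.

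Septate junction genes form the structural side of the barrier. All 15 listed were measured, and between days 2 and 14 in Control 13 of them rose and none fell, with a median of 0.35. Over the same days 12 rose in Atro and 11 in A75QN (median 0.27), and in A66QC 4 rose and 1 fell (median 0.13), whereas moody fell in both polyQ lines. Of all probe sets, 10.3% were called higher over those days in Control, 13.1% in Atro, 8.55% in A75QN and 6.93% in A66QC. The low count in A66QC depended on scaling. Under quantile normalization 9 junction genes rose there and 1 fell, against 12 rising in Control, 12 in Atro and 11 in A75QN. At day 14, 11 of 15 were lower than Control in A66QC, 7 were lower in A75QN and 1 in Atro, with medians of -0.38, -0.21 and -0.05. The shares of all probe sets called lower were 13.8%, 9.8% and 2.32% in the same order. Under quantile normalization 9 of 15 stayed lower in A66QC, while A75QN had 2 lower and 2 higher. Tsf2, a transferrin of the junction, was lower by -0.48 in A66QC (adjusted p = 4.1e-07) and by -0.30 in A75QN (adjusted p = 0.00059). crim, a Ly6 protein needed for the junction, was lower by -0.50 and -0.34 (adjusted p = 3.5e-06 and 0.0011). sinu, a claudin, was lower by -0.47 and -0.21 (adjusted p = 2.1e-05 and 0.048), and the A75QN difference of sinu shrank to -0.03 under quantile normalization.

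dlg1, a scaffold of junctions and synapses, was lower in A66QC by -0.72 (adjusted p = 1.9e-07) and in Atro by -0.57 (adjusted p = 2.3e-05) on its brightest probe set. In A75QN that probe set of dlg1 showed -0.07, or 0.13 under quantile normalization, while another of its probe sets was called at -0.39, so the probe sets of dlg1 disagreed there. Neurons and epithelia also express septate junction genes, and of 11 neuronal markers 9 were lower in A66QC at day 14, 2 in A75QN and 1 in Atro. Their mean difference was -0.46 in A66QC and -0.19 in A75QN as deposited and -0.29 and -0.04 under quantile normalization. Of all probe sets, 13.8% were called lower in A66QC, 9.8% in A75QN and 2.32% in Atro. The part of neurons in the septate junction differences was not tested.

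Retinal glia also recycle histamine, the photoreceptors' transmitter, and 8 of 11 listed genes of that cycle were measured. Hdc, which makes histamine in photoreceptors, was lower at day 14 in all 3 lines, by -0.31 in Atro (adjusted p = 0.020), -0.38 in A66QC (adjusted p = 0.0010) and -0.42 in A75QN (adjusted p = 0.00038). Inx2, a gap junction protein of glia, was lower in A66QC by -0.79 (adjusted p = 3.3e-05) and showed 0.08 in A75QN, where Inx2 was called higher under quantile normalization (0.27). CarT, a carcinine transporter of photoreceptors, was lower in A66QC by -0.50 (adjusted p = 0.00046), and ort, a histamine receptor, was higher in A75QN by 0.23 (adjusted p = 0.013). In all, 4 of the 8 genes were lower in A66QC, 1 was lower and 1 higher in A75QN, and 1 was lower in Atro. Of 11 measured photoreceptor markers, 3 were called lower in A66QC, 2 in A75QN and none in Atro, and their average level over the arrays of day 14 ran from 11.49 to 11.72 in Control. It lay below that in all 3 lines, at 11.35 to 11.44 in Atro, 11.31 to 11.41 in A66QC and 11.31 to 11.39 in A75QN, and the mean difference in A66QC of -0.22 became -0.08 under quantile normalization. Of all probe sets, 13.8% were called lower in A66QC, 9.8% in A75QN and 2.32% in Atro. The small counts of lower genes in A75QN, for histamine and for photoreceptor markers, thus lay near that line's share.

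**Figure D4:**
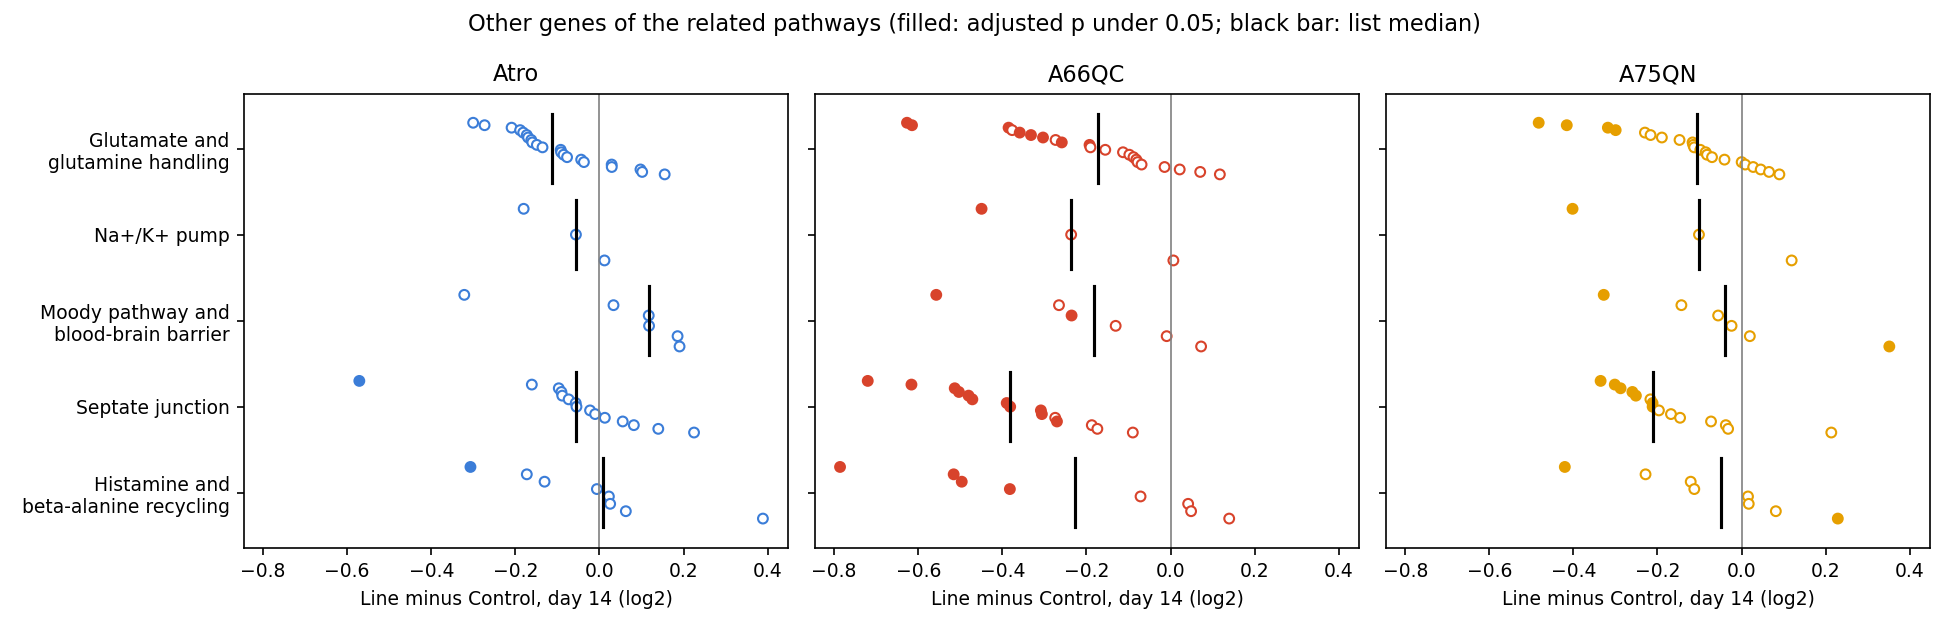
Day 14 difference from Control (log2) of each measured gene of 5 related pathways, the 5 main genes left out; filled symbols have an adjusted p under 0.05 and black bars are list medians. The septate junction genes sit lowest in A66QC, with a median of -0.38 and 11 of 15 filled.

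Other glial markers were called in both directions in A75QN. Besides the 4 markers described above, 17 were measured, 2 of which were near background (under 6.40) in every group. At day 14 in A66QC 5 were called lower and none higher, in A75QN 4 lower and 3 higher, and in Atro 1 lower. For all probe sets the shares were 13.8% lower in A66QC, 9.8% lower and 5.8% higher in A75QN, and 2.32% lower in Atro. Under quantile normalization the counts were 3 lower and 1 higher in A66QC and 2 lower and 3 higher in A75QN. Their average level over the arrays of day 14 ran from 8.42 to 8.47 in Control, 8.42 to 8.44 in Atro, 8.26 to 8.30 in A66QC and 8.31 to 8.46 in A75QN. The A66QC arrays were thus below every Control array, and those of A75QN overlapped Control, but the mean difference of the 17 genes in A66QC, -0.16 as deposited, was -0.03 under quantile normalization.

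wrapper, a surface protein of midline and cortex glia, was lower in all 3 lines at day 14, by -0.42 in Atro (adjusted p = 0.0012), -0.54 in A66QC (adjusted p = 1.9e-05) and -0.40 in A75QN (adjusted p = 0.0012). bnb was lower by -0.58 in A66QC (adjusted p = 0.00021) and by -0.54 in A75QN (adjusted p = 0.00069). By contrast, alrm, a marker of astrocyte-like glia, was higher in A75QN by 0.39 (adjusted p = 0.0076), and naz was higher there by 0.35 (adjusted p = 9.4e-05). zyd, an exchanger of cortex glia, was lower in A66QC by -0.32 (adjusted p = 0.0048), a call lost under quantile normalization (-0.14, adjusted p = 0.079).

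The 5 genes varied to very different degrees among themselves. The spread between the highest and lowest group mean was 2.34 for dmGlut, more than 99.4% of all probe sets had, 0.99 for moody, 0.96 for Gs2, 0.86 for nrv2 and 0.34 for repo, more than 62.4%. Over the 12 group means, which share arrays, age and normalization, Gs2 and nrv2 correlated at 0.984. moody and dmGlut correlated at 0.590, repo at 0.575 with nrv2 and 0.526 with Gs2, and the other pairs lay between -0.34 and -0.08. The profile most like that of Gs2 among 8259 probe sets with 1 gene symbol and above the median level was nrv2, followed by CG14591 (0.979) and Fs (0.978), a follistatin. nrv2 itself was closest to CG17734 (0.985) and to shi (0.984), the fly dynamin. Such profiles were common for these genes: 4.71% of candidates exceeded 0.9 with Gs2 and 5.56% with nrv2.

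For the others few profiles came close. moody was followed by spz (0.968), which encodes the Toll ligand Spätzle, by pyr (0.964), an FGF ligand, and by SCCRO (0.961), and 0.351% of candidates exceeded 0.9. dmGlut was followed by CG3770 (0.943), CG15673 (0.939) and Rcd6 (0.925), with 0.109% over 0.9. The repo profile, whose differences mostly lie within array spread, was closest to CG2991 (0.945), hook (0.924) and CG13698 (0.908). CG3770, with a range of 1.75 over the group means, was like dmGlut in being highest at day 14 in Control and Atro. In A75QN the courses differed. There the means at days 0, 2 and 14 were 6.66, 7.00 and 6.69 for CG3770 and 7.84, 7.77 and 8.00 for dmGlut. These are likenesses over 12 points and carry no test.

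**Figure D5:**
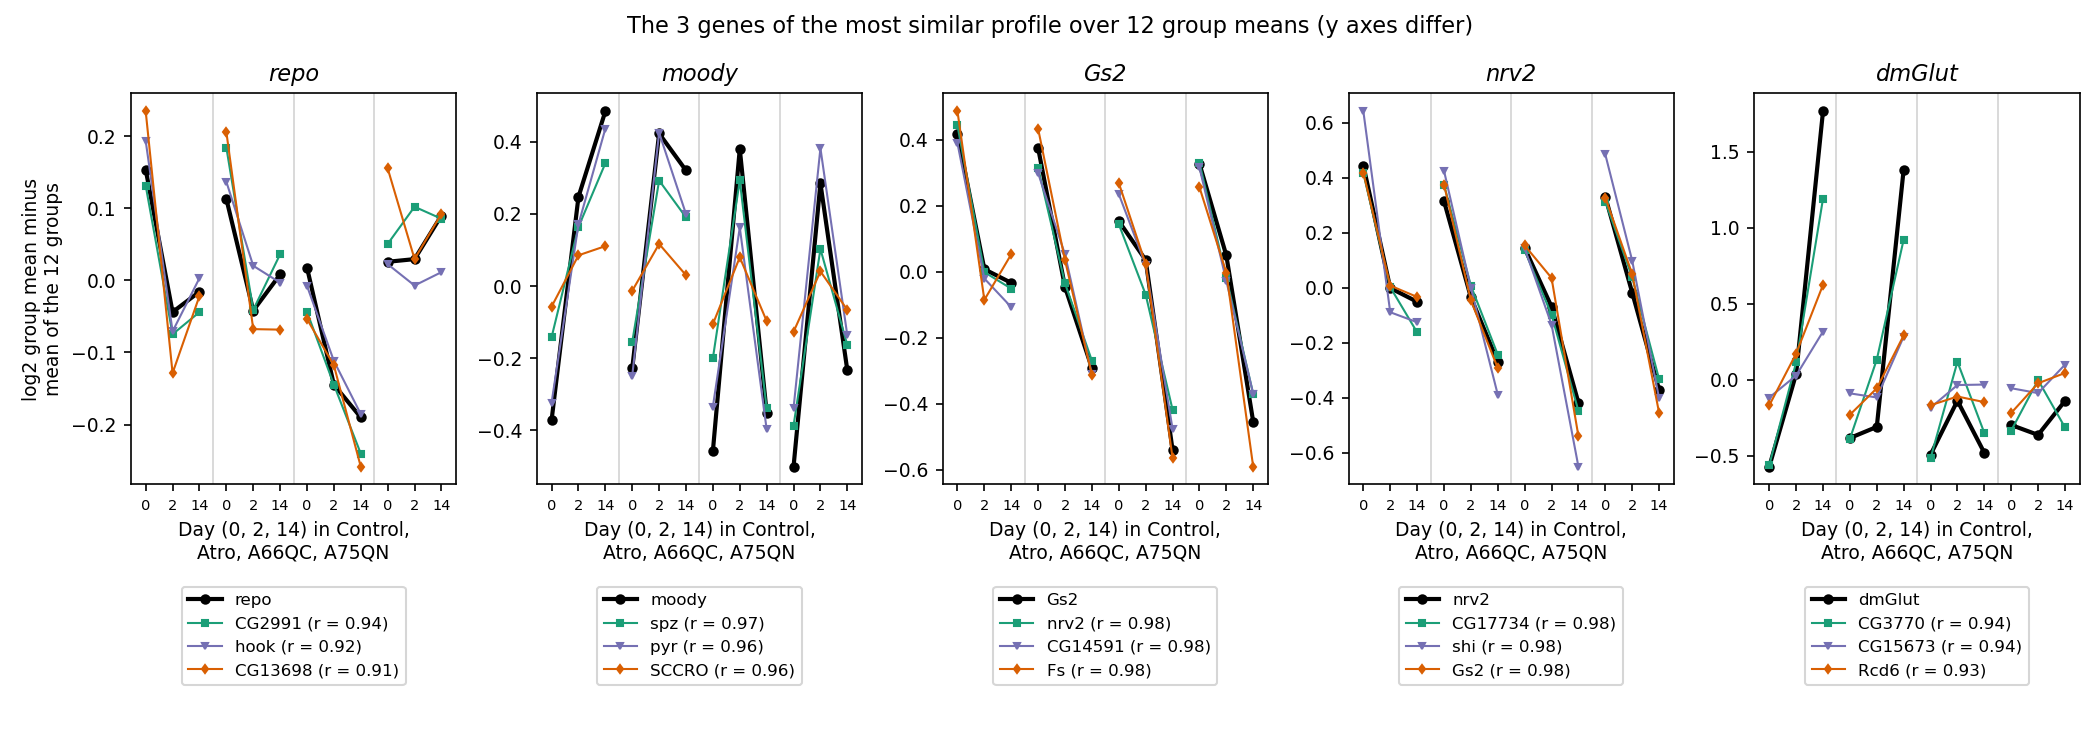
Group means (log2, centred on the mean of the 12 groups) of each gene in black and of the 3 genes with the highest correlation over the 12 groups, by day within Control, Atro, A66QC and A75QN (y axes differ). Gs2 and nrv2 appear in each other's panels at 0.984, and CG3770 rises with dmGlut in Control and Atro.

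Neighbouring genes were read from the Release 6 plus ISO1 MT annotation, a step chosen after the data were seen. Of the 10 flanking genes, 8 were measured. The neighbours of dmGlut, Wdr81 and CG18788, were not called at day 14 in either polyQ line or between days 0 and 14 in Control, with differences between -0.09 and 0.05. CG18788 averaged 5.80, near background, where a fall could not be seen. CG4325, beside moody, did move: it was lower at day 14 by -0.69 in A66QC (adjusted p = 1.7e-11) and by -1.03 in A75QN (adjusted p = 7.5e-16) and rose in Control by 1.38 between days 0 and 14 (adjusted p = 3.2e-19). Sik2, on the other side of moody, was lower in A66QC by -0.27 (adjusted p = 0.025) and showed -0.14 in A75QN. Evi5, beside Gs2, was lower by -0.83 in A66QC (adjusted p = 3.0e-07) and by -0.51 in A75QN (adjusted p = 0.00072). Or10a on the other side was not called, but it averaged 5.81, near background, where a fall could not be seen either. CG7156, which overlaps repo in that annotation, was not called, like repo itself.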

How the data were processed

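RNA from fly heads was measured on 36 Affymetrix arrays. The authors deposited log2 values per probe set. R 2.11.0 is the tool named in the submitters' processing notes, and how background was corrected and arrays normalized was not given in the sources used here. The deposited log2 values were used unchanged, without 183 control probe sets, leaving 18769. Of these, 13647 carry 1 gene symbol in the platform annotation, 402 several and 4720 none, and a gene with several probe sets is represented by the brightest.

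Means of the 12 groups were fitted together with limma 3.58.1 in R 4.3.3 (24 residual and 6.49 prior degrees of freedom). It gave 39 differences per probe set, with Benjamini-Hochberg adjustment and a threshold of 0.05, and was tested on simulated data. The genes, gene lists and tests were chosen with earlier results of these data known. The glial marker and glutamate genes were all named. From each pathway list up to 4 genes of the smallest adjusted p against Control and up to 4 between days could be named, and the 3 most alike profiles. Marker and neighbour genes were named after their values were seen, as were Gug and the fat body genes. Alternatives were quantile and cyclic loess normalization, brighter probe sets, a trended robust prior, array weights, a replicate block, fitting only the compared groups, and omitting each array. A fit without 6 arrays of outlying spread was added after seeing the data. Figures used matplotlib 3.10.9 in Python 3.11.15.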

Additional observations from a re-analysis of the deposited data

Results flagged for a closer look

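In 12 cases the change of a gene over time differed between a line and Control by limma's test of the difference between the changes, all 12 in the lower direction. For dmGlut, the difference from Control's change was -0.54 in Atro (adjusted p = 0.0020) and -0.68 in A75QN (adjusted p = 7.1e-05) from day 0 to day 2. From day 2 to day 14 it was -2.07 in A66QC (adjusted p = 4.9e-16) and -1.51 in A75QN (adjusted p = 1.2e-12). From day 0 to day 14 it was -0.57 in Atro (adjusted p = 0.00056), -2.33 in A66QC (adjusted p = 1.4e-17) and -2.18 in A75QN (adjusted p = 6.2e-17).

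For moody, the change from day 2 to day 14 differed from Control's by -0.97 in A66QC (adjusted p = 7.7e-06) and by -0.76 in A75QN (adjusted p = 0.00046). From day 0 to day 14 it differed by -0.75 in A66QC (adjusted p = 0.00038) and by -0.59 in A75QN (adjusted p = 0.0057). The Gs2 change from day 2 to day 14 differed by -0.53 in A66QC (adjusted p = 0.026).

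All lines were compared with the same Control arrays. The A75QN arrays of days 2 and 14 share a high spike-in signal, so for changes of A75QN from day 0 spike-in level and age cannot be told apart. Likewise, spike-in level and genotype cannot be told apart for differences of A75QN from Control, Atro or A66QC at days 2 and 14. With 3 arrays a group, no test for a single outlying value of a gene was made.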

How the results depend on the processing

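Of 195 differences tested over the 5 genes, 63 were called, 52 of them under every alternative. The other 11 lost their call in at least 1 alternative, 6 of them only when a single array was left out. The dmGlut difference in Atro's early change missed the threshold with the compared groups alone (adjusted p = 0.058), and the later Gs2 difference in A66QC was lost in 7 of 20 alternatives (adjusted p up to 0.42). Conversely, 56 differences that were not called passed under some alternative. Array weights raised the calls against Control from 11 to 17 of 45. Calls of the polyQ lines against Atro, 4 of 30, became 14 (array weights), 8 (quantile), 7 (cyclic loess), 7 (compared groups alone) and 9 (without outlying arrays). Calls between the polyQ lines, 1 of 15, became 2, 5, 7, 2 and 3 in the same order. Leaving out each array in turn gave 10 to 14, 4 to 6 and 1 to 2 calls in these families, 31 to 37 (of 35) between days and 11 to 13 (of 12) between changes.

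The replicate number as a block gave 11, 5, 1, 35 and 12 calls in the 5 families. Of 198 same-numbered pairs of arrays, 73 correlated over 0.1, and 13 of 36 arrays correlated best with their own number, so the numbers were not taken to pair samples. Under another scaling, the share of higher calls moved by more than 10 percentage points in 28 of 39 comparisons.

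Differences that changed sign passed the threshold in neither setting. They were repo in A66QC against Atro at day 0 (0.060 quantile, 0.035 cyclic loess, 0.00096 without the outlying arrays, and -0.20 to 0.00096 when single arrays were left out), repo in A75QN against Atro at day 0 (0.046 and 0.063), moody in A66QC against Atro at day 2 (-0.18 to 0.035 when single arrays were left out), Gs2 in Control from day 2 to day 14 (likewise -0.11 to 0.029) and nrv2 there (-0.17 to 0.054). The cause was not tested. No member has another probe set, so that alternative gave no value. With 3 arrays a group, small differences were not detectable, and the deposited values carry no signal over background.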
